A study of Rattus norvegicus with 6 samples.

Results

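The respiratory chain of the inner mitochondrial membrane is built largely from nuclear-encoded subunits, and 35 of their genes were followed here in the renal cortex of rats. The genes were chosen by name as subunits of complexes I to IV and cytochrome c, with earlier results of these data known. Each gene was read by its brightest probe among those that the scanner software called well above background on the 3 arrays of either group. By that rule 33 of the 35 genes were measured, among 12118 genes tested on the array. The measured genes were 16 of 17 for complex I, 4 of 4 for complex II, 5 of 6 for complex III, 1 of 1 for cytochrome c and 7 of 7 for complex IV. Ndufa8 and Cyc1 matched no probe. No complex V gene was among the 35, so 15 measured genes of a list of 16 ATP synthase genes were set beside them. The 13 subunits encoded by mitochondrial DNA were not analysed here.

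Male Sprague-Dawley rats, 5 weeks old at purchase, were dosed for 4 weeks. The vehicle group (n = 3 rats) was given corn oil. The treated group (n = 3 rats) received 250 mg/kg per day of sulfone bis(p-chlorophenyl), in which a sulfone group joins chlorinated phenyl rings. RNA of each animal's cortex was hybridised alone to a 1-colour Agilent array, and the design text describes the 3 samples of a group as biological replicates.

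Complex I takes electrons from NADH and complex II takes them from succinate; both pass them to ubiquinone. Complex III hands them to cytochrome c, the small soluble carrier, and complex IV delivers them to oxygen, while complexes I, III and IV pump protons that drive ATP synthase, complex V. In the renal cortex this machinery is abundant in the proximal tubule, whose sodium transport depends on oxidative metabolism.

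Many genes of the chain carry binding motifs of NRF-1 and of ETS factors such as NRF-2 (GABP) near their start. Promoter windows from RefSeq (GRCr8), reaching from 250 bases before to 50 bases after the start, held 30 of the 35 genes (not Ndufa8, Cyc1, Uqcrb, Cox6a1 or Cox6c). Both strands were searched for the NRF-1 motif (GCGCA, any base, then GCGC) and the ETS core (CCGGAAG), whose matches can share at most an end base. The ETS core occurred in 11 of the 30 promoters (36.7%), against 8.75% of all 33469 promoters in the table. The NRF-1 motif occurred in 3 of the 30 (10.0%; Ndufa5, Sdha and Uqcrc1), against 4.25% of all. Of the 15 ATP synthase promoters, 5 held the NRF-1 motif and 4 the ETS core. The 250 bases before the start are printed for 4 genes, 5′ to 3′ on the gene's strand, with motif matches in capitals. Ndufb8 (chr1:253362937-253363186, minus strand) and Ndufs7 (chr7:10110499-10110748, minus strand) are shown for their differences between groups, which were the 2 highest of the 33, and hold neither motif in these letters. Ndufa5 (chr4:53971236-53971485, minus strand) is shown for its NRF-1 match, which begins 32 bases before the start. Uqcrc2 (chr1:184598990-184599239, plus strand) is shown for its 2 ETS matches, which begin 117 and 28 bases before the start and lie on the opposite strand. A match describes the letters only.
Ndufb8: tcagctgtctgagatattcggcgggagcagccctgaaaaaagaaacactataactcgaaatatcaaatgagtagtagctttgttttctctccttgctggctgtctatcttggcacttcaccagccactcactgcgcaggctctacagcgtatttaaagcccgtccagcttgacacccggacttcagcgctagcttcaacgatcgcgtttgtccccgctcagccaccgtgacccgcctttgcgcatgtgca
Ndufs7: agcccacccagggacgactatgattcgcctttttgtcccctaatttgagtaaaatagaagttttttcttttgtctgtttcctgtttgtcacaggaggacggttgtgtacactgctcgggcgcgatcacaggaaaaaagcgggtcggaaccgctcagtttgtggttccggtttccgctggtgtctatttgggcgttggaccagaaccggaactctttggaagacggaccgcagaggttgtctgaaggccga
Ndufa5: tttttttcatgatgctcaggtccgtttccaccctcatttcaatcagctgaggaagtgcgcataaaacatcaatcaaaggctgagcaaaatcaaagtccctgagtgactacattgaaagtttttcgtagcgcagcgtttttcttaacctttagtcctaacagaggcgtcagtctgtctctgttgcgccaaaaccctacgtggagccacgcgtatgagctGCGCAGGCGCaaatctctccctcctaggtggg
Uqcrc2: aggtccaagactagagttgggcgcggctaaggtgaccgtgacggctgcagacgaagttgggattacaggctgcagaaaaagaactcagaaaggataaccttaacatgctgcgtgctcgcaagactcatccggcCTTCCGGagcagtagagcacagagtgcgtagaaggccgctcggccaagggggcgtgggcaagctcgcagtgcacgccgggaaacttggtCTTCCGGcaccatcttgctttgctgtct

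On each array 66.1% to 68.2% of probes exceeded background by that call, and array pairs correlated at 0.982 to 0.994 across tested probes. The 15 listed marker genes of the proximal tubule, the main tubule segment of the cortex, exceeded it on all 6 arrays. The arrays lay on separate slides: slide 1 held vehicle 1, 2 and 3 and treated 1, and slide 2 held treated 2 and 3, with the scans divided the same way. Only slide 1 held both groups, through treated 1. Levels are log2 of the processed spot signal minus the array's 75th percentile, so that 0 is the level of the 75th-percentile probe. A difference is treated minus vehicle on that log2 scale, with its 95% confidence interval from limma. Within slide 1 it is treated 1 minus the vehicle mean, so its sign is fixed in any gene whose groups do not overlap. Levels of different genes come from different probes and are not compared. In whole cortex, fewer cells of a type and less RNA per cell cannot be told apart.

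The respiratory chain genes were at nearly the same level in treated and vehicle cortex. The median difference over the 33 genes was 0.04, beside -0.01 over all tested genes, with 22 genes above 0 and 11 below. The differences ran from -0.21 for Uqcrq to 0.43 for Ndufb8, and 28 of the 33 lay between -0.15 and 0.15, where 48.0% of all tested genes lay. The median absolute difference was 0.06, against 0.16 over all tested genes. In 30 of the 33 genes (90.9%) the whole 95% interval lay within 0.5 of 0, which was so for 56.3% of all tested genes. The exceptions were Ndufb8, Ndufs7 and Uqcrq. These shares follow the measurement spread as well as the difference: the median SD within a group was 0.07 for the 33 genes and 0.14 for all tested genes.

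No respiratory chain gene passed limma with Benjamini-Hochberg adjustment at 0.05. Across the array 3 probes passed, or 0.00738% of 40643. The smallest adjusted p among the 33 genes was 0.125, for Ndufb8, and the count was 0 under every other setting tried except the removal of treated 1. At an unadjusted limma p under 0.05 for the brightest probe, 2 genes were higher (6.06%, Ndufb8 and Ndufs7), against 10.1% of all tested genes. By the same rule 0 were lower, against 11.3%. With slide as a block the count of higher genes was also 2, but the genes were Ndufb8 and Cycs, and Ndufs7 did not pass. The treated and vehicle arrays did not overlap in 5 genes that were higher (15.2%; Ndufb8, Ndufs7, Ndufv1, Sdhd and Uqcrc2), beside 13.9% of all tested genes. They did not overlap in 3 genes that were lower (9.09%; Ndufa9, Ndufs8 and Cox7a2), beside 16.8% of all. The adjusted count depended on 1 array: without treated 1, Ndufb8 (0.49, limma adjusted p = 0.037) and Ndufs7 (0.36, limma adjusted p = 0.038) passed and were higher, as did 4.18% of all tested genes. That comparison sets slide 2 against slide 1, so slide and treatment cannot be told apart in it. The count of genes higher at an unadjusted p under 0.05 was 4 without treated 1 and 1 without vehicle 1, vehicle 2 or treated 2.

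**Figure D1:**
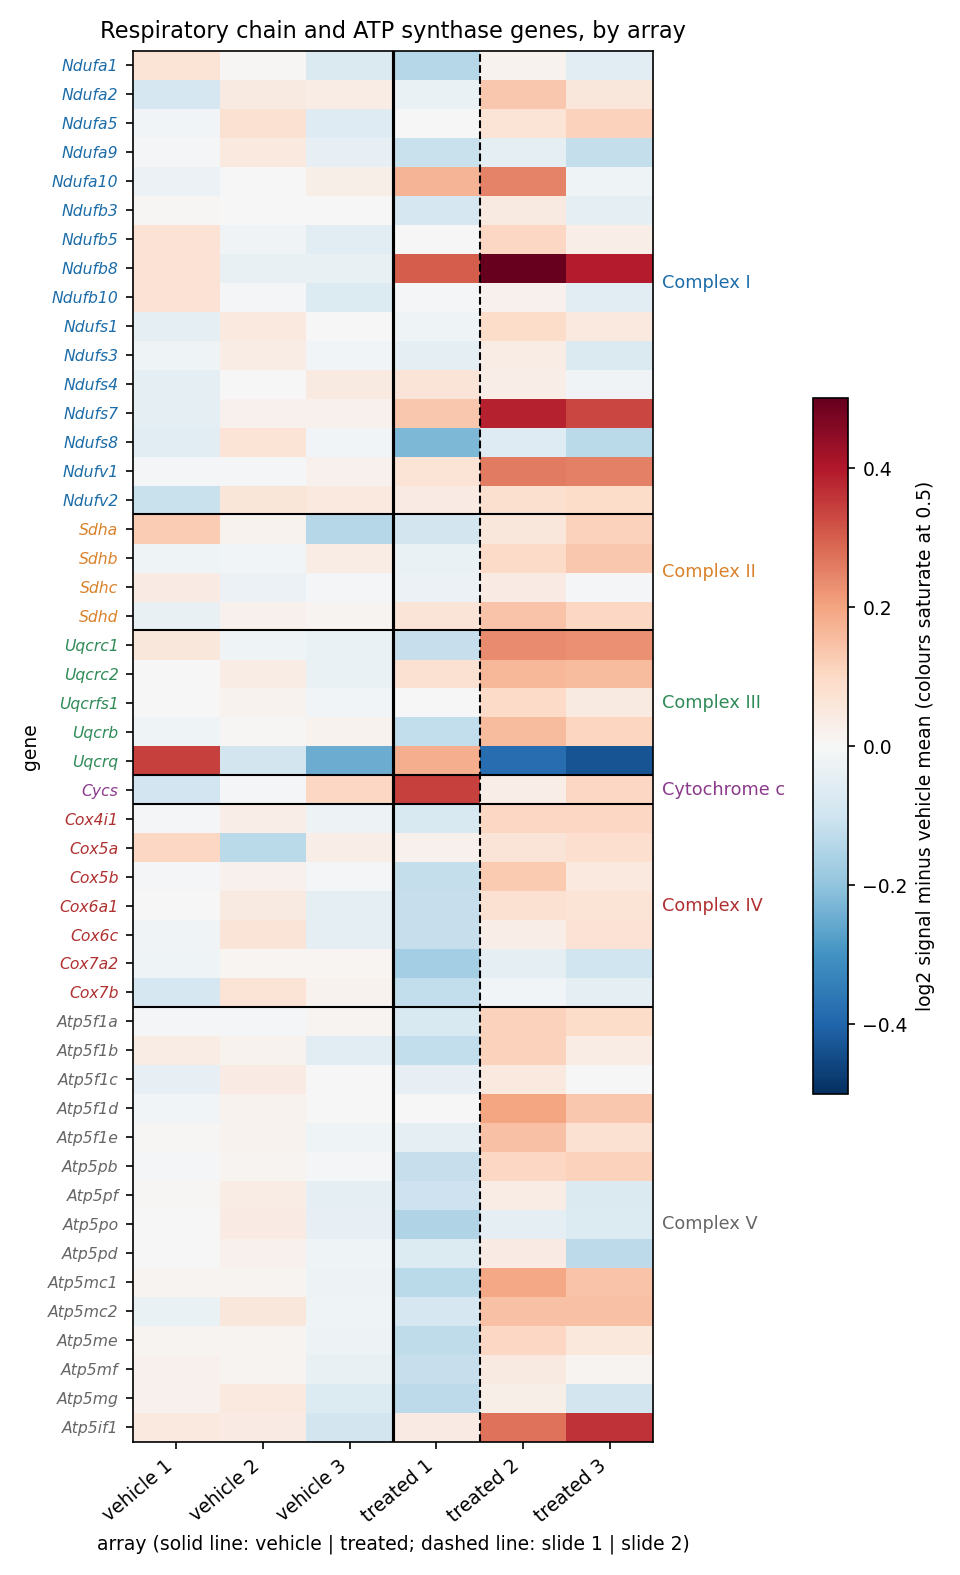
Each cell is 1 gene on 1 array, coloured by log2 signal minus the vehicle mean of that gene (colours saturate at 0.5 in either direction), for the 33 respiratory chain genes and 15 ATP synthase genes. Most cells are pale. Ndufb8 and Ndufs7 stand out on the treated arrays, as do Cycs on treated 1 and Atp5if1 on treated 3. Uqcrq stands out above 0 on vehicle 1 and below 0 on treated 2 and 3. The columns of treated 2 and 3 are warmer than that of treated 1 in most genes.

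Complex I held the highest differences. Its 16 genes had a median difference of 0.04, with 10 above 0 and 6 below, and 14 intervals lay within 0.5 of 0. Ndufb8 encodes an accessory subunit of the membrane arm. Its level was 7.40, 7.29 and 7.29 on the vehicle arrays and 7.63, 7.90 and 7.72 on the treated arrays. All treated arrays lay above all vehicle arrays, with treated 1 the nearest. The difference was 0.43 (SE 0.10, interval 0.19 to 0.66), a fold of 1.34 (1.14 to 1.58), and within slide 1 it was 0.31. Ndufb8 was read by a single probe, so no second probe could be set beside it.

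Ndufs7 and Ndufv1, both named after their values were seen, encode catalytic core subunits: NDUFV1 binds NADH and flavin at the entry of electrons, and NDUFS7 carries the iron-sulfur cluster that hands them to ubiquinone. The level of Ndufs7 was 6.15, 6.22 and 6.22 in vehicle and 6.33, 6.58 and 6.53 in treated cortex. Its difference was 0.28 (interval 0.06 to 0.50, limma adjusted p = 0.183), and a second probe gave 0.27. The groups did not overlap, but treated 1 lay closer to vehicle than treated 2 and 3 did, and within slide 1 the difference was 0.13. The level of Ndufv1 was 6.29, 6.29 and 6.32 in vehicle and 6.37, 6.56 and 6.55 in treated cortex. Its difference was 0.20 (interval -0.0019 to 0.39, limma adjusted p = 0.245), with 0.18 from a second probe and 0.07 within slide 1. Treated 1 was again the treated array nearest to vehicle.

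The other catalytic core genes of complex I among the 33 had differences nearer to 0 or below it. Ndufs8, an iron-sulfur subunit next to NDUFS7 in the chain of clusters, was at 3.85, 3.97 and 3.89 in vehicle and at 3.68, 3.84 and 3.77 in treated cortex. Its difference of -0.14 (interval -0.33 to 0.06) was the lowest in complex I; the groups just failed to overlap, and a second probe gave -0.05. Ndufs1, which carries several clusters of the peripheral arm, differed by 0.04 (interval -0.14 to 0.22), Ndufs3 by -0.02 (-0.20 to 0.15) and Ndufv2 by 0.07 (-0.12 to 0.26). Among the accessory subunits, Ndufa9 differed by -0.09 (interval -0.26 to 0.08) with no overlap between groups. Ndufa10 differed by 0.13 (-0.09 to 0.36), and Ndufa1, Ndufa2, Ndufa5, Ndufb3, Ndufb5 and Ndufb10 lay between -0.06 and 0.06. Ndufs4, which is needed for a stable complex, differed by 0.03 with its brighter probe and by 0.27 with a dimmer one, a disagreement of a size seen among the 33 genes otherwise only in Cox5b. The dimmer Ndufs4 probe had an unadjusted limma p of 0.018 and no overlap between groups, and the gene counts leave it out.

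Complex II is succinate dehydrogenase, the enzyme shared with the citric acid cycle. Its 4 genes had a median difference of 0.05, and every interval lay within 0.5 of 0. Sdhd, a membrane anchor, was at 6.02, 6.08 and 6.07 in vehicle and 6.12, 6.20 and 6.16 in treated cortex. The groups did not overlap, and the difference was 0.10 (interval -0.06 to 0.27). Sdhc, the other anchor, was at 5.34, 5.27 and 5.29 in vehicle and 5.27, 5.34 and 5.29 in treated cortex, a difference of -0.01 (-0.17 to 0.16). Sdha, the flavoprotein that oxidises succinate, was at 7.18, 7.07 and 6.91 in vehicle and 6.96, 7.11 and 7.17 in treated cortex, a difference of 0.03 (-0.23 to 0.28). The groups overlapped fully in both. Sdhb, the iron-sulfur subunit, differed by 0.07 (-0.12 to 0.26).

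Complex III had a median difference of 0.05 over its 5 measured genes. Uqcrc2, a core protein of the matrix side, was at 5.31, 5.35 and 5.28 in vehicle and 5.39, 5.48 and 5.47 in treated cortex. The groups did not overlap, and the difference was 0.13 (interval -0.03 to 0.30). Uqcrc1, the other core protein, differed by 0.12 (-0.16 to 0.40), but treated 1, at 4.98, lay below the vehicle arrays at 5.15, 5.07 and 5.06, while treated 2 and 3 were at 5.33 and 5.32. Uqcrfs1, the Rieske iron-sulfur protein, differed by 0.05 (-0.12 to 0.22). Uqcrb, a small subunit near the ubiquinone site, was at 6.97, 7.00 and 7.01 in vehicle and 6.87, 7.15 and 7.10 in treated cortex, a difference of 0.05 (-0.19 to 0.28). Its other 3 probes gave -0.07, -0.09 and 0.03.

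Uqcrq, another small subunit of complex III, was the least precisely measured of the 33 genes. Its level was 0.27, -0.16 and -0.32 in vehicle and 0.11, -0.45 and -0.50 in treated cortex, a difference of -0.21 (interval -0.76 to 0.34). The groups overlapped, and vehicle 1 and treated 1 were the highest of their groups. Within slide 1 the difference was 0.18, of the opposite sign. A second Uqcrq probe did not exceed background on the arrays and was not tested.

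Cytochrome c, encoded by Cycs, showed another order of arrays. Its level was 6.97, 7.06 and 7.17 in vehicle and 7.41, 7.10 and 7.17 in treated cortex. Treated 1 was the highest array, and treated 2 and 3 lay inside the vehicle range. The difference was 0.16 (interval -0.11 to 0.43) over all arrays and 0.34 within slide 1. All 5 Cycs probes had treated 1 as the highest array, and they gave differences from 0.11 to 0.22.

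**Figure D2:**
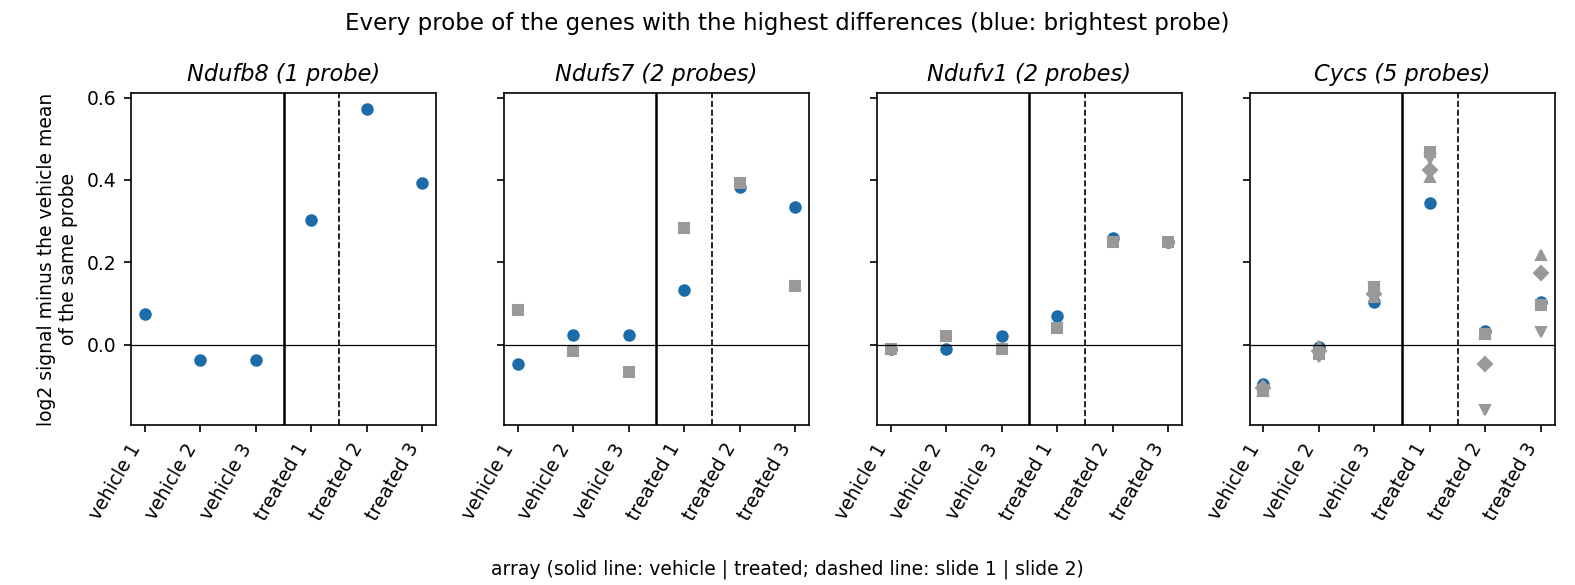
Each point is 1 probe on 1 array, as log2 signal minus that probe's vehicle mean, for Ndufb8 (1 probe), Ndufs7 and Ndufv1 (2 probes each) and Cycs (5 probes); blue marks the brightest probe, which the values in the text use. The probes of Ndufv1 nearly coincide, and all Cycs probes peak on treated 1.

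Complex IV, cytochrome c oxidase, had a median difference of 0.01 over 7 genes, and every interval lay within 0.5 of 0. Cox5a, a subunit on the matrix side, had the highest difference: 6.78, 6.54 and 6.71 in vehicle and 6.70, 6.74 and 6.76 in treated cortex, a difference of 0.06 (interval -0.15 to 0.27) with full overlap. Cox7a2, the isoform of subunit 7a found in most tissues, was at 6.20, 6.23 and 6.23 in vehicle and 6.05, 6.17 and 6.12 in treated cortex. Its groups did not overlap, and the difference was -0.10 (-0.28 to 0.07), but its second probe gave 0.05. Cox6a1, the liver-type isoform of subunit 6a, was at 8.59, 8.64 and 8.55 in vehicle and 8.48, 8.67 and 8.66 in treated cortex, a difference of 0.01 (-0.20 to 0.21). Cox4i1, the general isoform of subunit 4, differed by 0.04 (-0.16 to 0.24), Cox6c by -0.0031 (-0.20 to 0.20) and Cox7b by -0.06 (-0.25 to 0.14). Cox5b, a zinc-binding matrix subunit, gave 0.02, -0.22 and -0.05 with its 3 probes. The probe at -0.22 had an unadjusted limma p of 0.022, with all treated arrays below all vehicle arrays. It was not the brightest, so the gene counts leave it out. In 6 of the 7 genes treated 1 lay below all vehicle arrays, against 38.6% of all tested genes.

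ATP synthase, complex V, had a median difference of 0.01 over 15 genes, with 15 intervals within 0.5 of 0. Atp5f1a, the alpha subunit of the catalytic head, was at 8.84, 8.84 and 8.86 in vehicle and 8.77, 8.96 and 8.94 in treated cortex, a difference of 0.04 (interval -0.16 to 0.23). Atp5po, the subunit of the peripheral stalk that confers oligomycin sensitivity, was at 7.93, 7.97 and 7.89 in vehicle and 7.78, 7.88 and 7.86 in treated cortex, a difference of -0.09 (-0.26 to 0.09). Atp5if1, the inhibitor that stops the enzyme from running backwards, was at 6.11, 6.10 and 5.97 in vehicle and 6.10, 6.33 and 6.42 in treated cortex. Treated 1 lay within the vehicle range and treated 2 and 3 above it, a difference of 0.22 (-0.04 to 0.49) that was 0.04 within slide 1. Differences between complexes were not tested; the medians of complexes I to V spanned only 0.01 to 0.05.

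**Figure D3:**
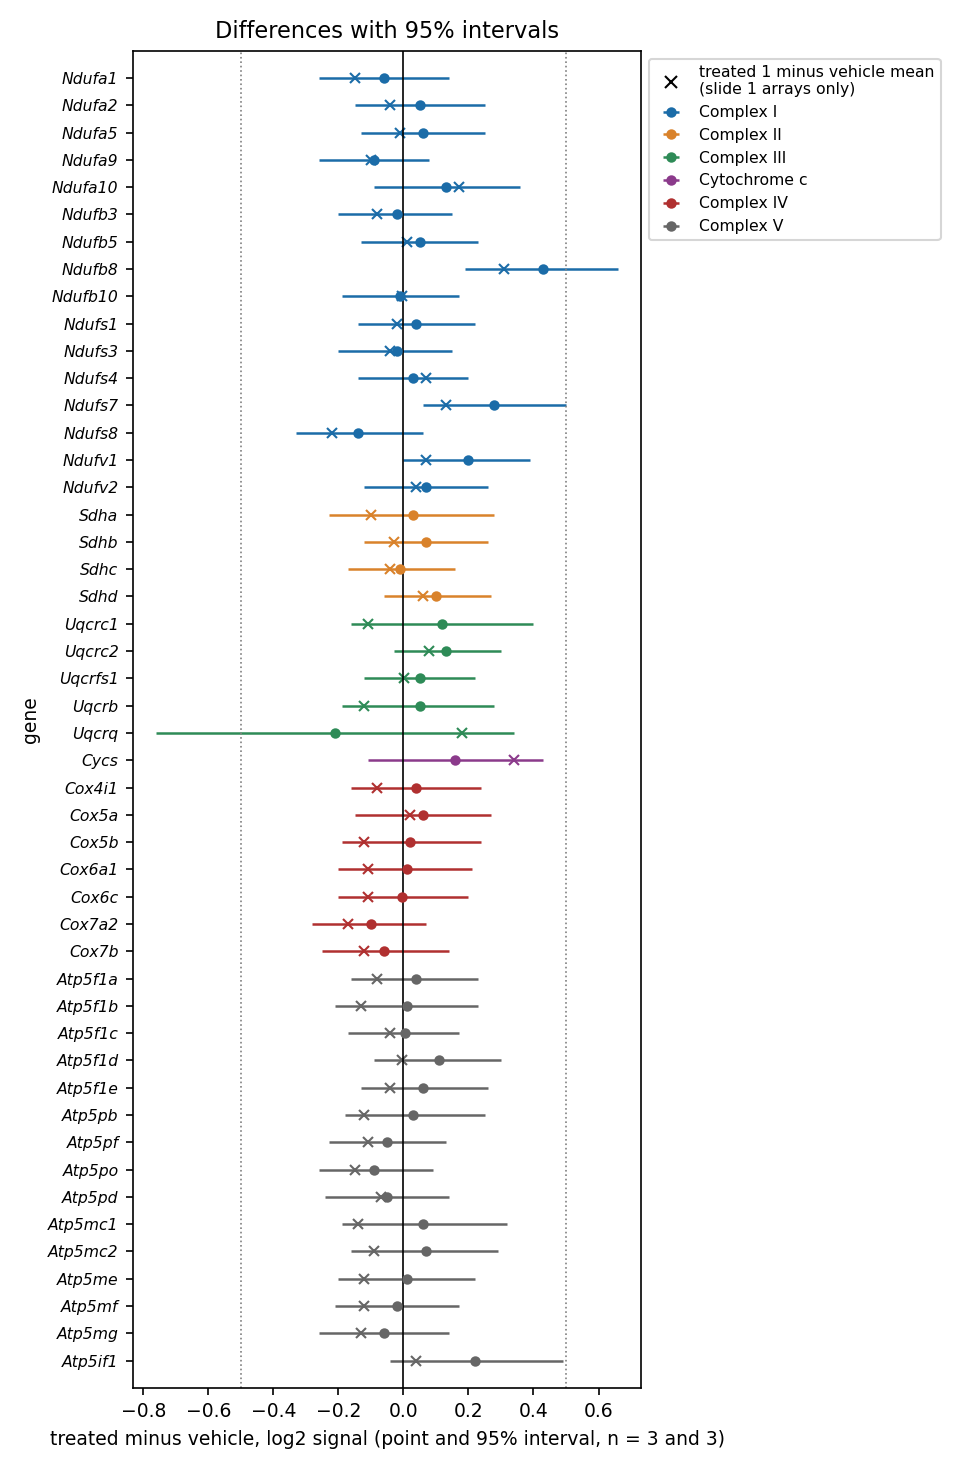
Points are differences in log2 signal, treated minus vehicle (n = 3 and 3), with 95% intervals from limma, and crosses are treated 1 minus the vehicle mean, the comparison within slide 1. Most intervals lie between the dotted lines at 0.5 on either side of 0, and the crosses of complexes IV and V lie mostly to the left of the points.

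Where a gene had several probes, their differences mostly lay within 0.15 of each other. The median absolute difference of the 33 genes was only 0.06, and in Cox5b, Cox6c, Cox7a2, Ndufb10 and Uqcrb the probes differed in sign. In Cox6c both probes were close to 0. Of the 33 genes, 18 had several tested probes, 43 in all, and 15 had 1. In 14 of the 18 the highest and lowest probe differed by at most 0.15, with a median range of 0.04. In 2 genes, Ndufs4 and Cox5b, the probes differed by over 0.2, and 0.24 was the largest range.

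The small differences had a shared order across the treated arrays. In 26 of the 33 genes (78.8%) treated 2 and 3 were both above treated 1, against 43.5% of all tested genes. This held in 11 of 16 genes of complex I, 4 of 4 of complex II, 4 of 5 of complex III and 7 of 7 of complex IV, but not in Cycs. It also held in 14 of 15 ATP synthase genes, 14 of 17 citric acid cycle genes and 10 of 15 proximal tubule markers. The pattern was noticed in the data and has no test. Treated 2 and 3 were the slide 2 arrays, so slide and animal cannot be told apart here.

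Measured against the vehicle mean, the median over the 33 genes was -0.03 in treated 1, 0.07 in treated 2 and 0.05 in treated 3, and from -0.01 to 0.02 in the vehicle arrays. The median of the 15 proximal tubule markers was -0.02 to 0.03 in the vehicle arrays, -0.05 in treated 1, 0.34 in treated 2 and 0.21 in treated 3. Of those 15 markers, 3 were higher and 1 lower at an unadjusted p under 0.05. These shares were 20.0% and 6.67%, against 10.1% and 11.3% of all tested genes. The median of the 7 of 10 immune cell markers that were measured was -0.22 to 0.20 in the vehicle arrays and -0.08, -0.54 and -0.50 in treated 1, 2 and 3. The part of either in the respiratory chain values was not tested. With slide as a block, which leaves treated 1 against the vehicle arrays, the medians were -0.01 for complex I, -0.03 for complex II, 0.0017 for complex III, -0.11 for complex IV and -0.11 for complex V.

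**Figure D4:**
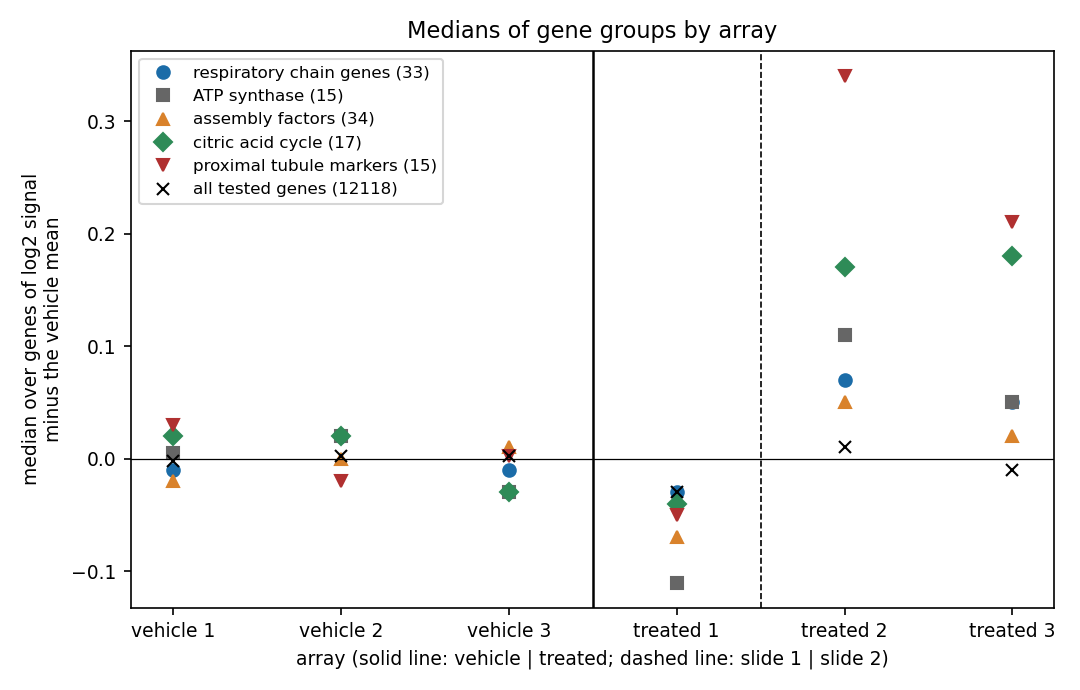
Each point is the median over the genes of a group of log2 signal minus the vehicle mean, on each of the 6 arrays. The respiratory chain genes reach 0.07 and the ATP synthase genes 0.11 on treated 2, while proximal tubule markers and citric acid cycle genes reach 0.34 and 0.18 on the slide 2 arrays.

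The rest of the machinery was read from lists of related genes, and no gene of these lists passed limma after adjustment over all arrays. Of 22 other nuclear subunits of complexes I, III and IV, 0 were higher and 2 lower at an unadjusted p under 0.05 (9.09%, against 11.3% of all tested genes), with a median of 0.01. The exception in size was Cox7c, a small subunit of complex IV: 3.63, 3.72 and 3.48 in vehicle and 3.28, 2.56 and 2.38 in treated cortex. Its groups did not overlap; the difference was -0.87 (SE 0.24, limma adjusted p = 0.156) over all arrays and -0.33 within slide 1. It rested on 1 probe, and the slide 2 arrays were the lowest. Without treated 1 the difference was -1.14 (limma adjusted p = 0.012). That comparison sets slide 2 against slide 1, and 4307 of 40643 tested probes passed in it. Ndufb2, an accessory subunit of complex I, differed by -0.20 (interval -0.39 to -0.02) and by -0.18 within slide 1.

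Of 9 genes for tissue-restricted isoforms 4 were measured. At an unadjusted p under 0.05, 1 was lower (25.0%, against 11.3% of all tested genes) and 0 were higher. Cox4i2, the alternative isoform of subunit 4, was at 2.64, 2.64 and 2.60 in vehicle and 2.44, 1.91 and 1.84 in treated cortex. The groups did not overlap. The difference was -0.57 (limma adjusted p = 0.168), with -0.19 within slide 1 and -0.12 from a second probe. It passed without treated 1 (-0.75, limma adjusted p = 0.011), where slide 2 is set against slide 1 and 4307 of 40643 tested probes passed. Because Cox4i2 is known from pericytes and smooth muscle, markers of those cells were read as a list added after its value was seen: 3 of 7 were higher at an unadjusted p under 0.05 and 0 lower, with a median of 0.36 (42.9% higher, against 10.1% of all tested genes). The slide block gave them a median of 0.18. Their part in the Cox4i2 value was not tested. Cox6a2, the muscle isoform of subunit 6a, differed by -0.18 (interval -0.36 to 0.01), and Cox7a1 and Ndufa4l2 were not among the tested genes.

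Of 34 assembly factors, 1 was higher and 3 lower at an unadjusted p under 0.05 (2.94% and 8.82%, against 10.1% and 11.3% of all tested genes), with a median difference of 0.02. Bcs1l, the chaperone that inserts the Rieske protein into complex III, was at -1.73, -1.68 and -1.76 in vehicle and -2.13, -1.96 and -2.14 in treated cortex. All treated arrays were lower than all vehicle arrays; the difference was -0.36 (SE 0.08, limma adjusted p = 0.128), and -0.41 within slide 1. Cox16, an assembly factor of complex IV, differed by -0.36 as well (limma adjusted p = 0.136; -0.35 within slide 1), and Ndufaf7, a methyltransferase for complex I, by -0.23 (-0.22 within slide 1). Cox19, which serves copper delivery to complex IV, differed by 0.26 (interval 0.05 to 0.48; 0.39 within slide 1). In these 4 assembly genes the groups did not overlap, so treated 1 alone had to give the same sign within slide 1.

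Among 18 regulators of mitochondrial gene expression, 1 was higher and 1 lower at an unadjusted p under 0.05 (5.56% each way, against 10.1% and 11.3% of all tested genes). Ppargc1b, the coactivator PGC-1beta, was at 0.14, 0.07 and 0.09 in vehicle and 0.62, 0.96 and 0.67 in treated cortex. The groups were well apart. The difference was 0.65 (SE 0.11, interval 0.38 to 0.92, limma adjusted p = 0.095) and 0.52 within slide 1. Among the settings tried it passed only without treated 1 (0.72, limma adjusted p = 0.027), where slide 2 is set against slide 1. Ppargc1a, its better-known relative PGC-1alpha, differed by 0.18 (-0.14 to 0.51). Nrf1, which binds the NRF-1 motif, differed by 0.06 (-0.17 to 0.30), and Gabpa, the ETS subunit of NRF-2, by -0.13 (-0.38 to 0.11). Tfam, which packages and transcribes mitochondrial DNA, differed by -0.15 (-0.39 to 0.10), and Esrra, a nuclear receptor partner of the coactivators, by 0.07 (-0.11 to 0.26). Polg2, the accessory subunit of the mitochondrial DNA polymerase, was at 2.62, 2.70 and 2.57 in vehicle and 2.20, 2.32 and 2.39 in treated cortex, a difference of -0.32 (limma adjusted p = 0.144) without overlap.

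The feeding and protecting pathways gave values of their own. The 17 genes of the citric acid cycle and pyruvate dehydrogenase had a median difference of 0.13, with 15 above 0 and 1 higher at an unadjusted p under 0.05 (5.88%, against 10.1% of all tested genes). The slide block gave this list -0.04, of the opposite sign. The gene past the threshold, Pdhb, the beta subunit of pyruvate dehydrogenase, was at 4.10, 4.19 and 4.24 in vehicle and 4.58, 4.48 and 4.80 in treated cortex. Its difference was 0.44 (limma adjusted p = 0.133), with 0.40 within slide 1. The groups did not overlap, so treated 1 had to give the same sign. Cs, citrate synthase, a common gauge of mitochondrial content, differed by 0.15 (interval -0.04 to 0.33) and by 0.06 within slide 1. The isocitrate dehydrogenase genes Idh3b and Idh2 differed by 0.18 and 0.13, but by -0.05 and -0.08 within slide 1. Of 10 genes of coenzyme Q synthesis, Coq8a (0.34) and Coq8b (0.18) were higher and Coq7 (-0.34) lower at an unadjusted p under 0.05 (20.0% and 10.0%, against 10.1% and 11.3% of all tested genes). Within slide 1 their values were 0.16, 0.17 and -0.29, and none of the 3 passed that threshold. Of 9 mitochondrial redox genes 3 were higher at that threshold (33.3%, against 10.1% of all tested genes), the glutathione peroxidase Gpx4 (0.25), the thioredoxin Txn2 (0.18) and the peroxiredoxin Prdx5 (0.20). Within slide 1 these values were 0.09, 0.14 and 0.09, and none of the 3 passed the threshold there; the median of the list was 0.13 over all arrays and 0.01 with slide as a block. Without treated 1, which sets slide 2 against slide 1, Gpx4 was at 0.33 (limma adjusted p = 0.039). Sod2, the superoxide dismutase of the matrix, differed by -0.12 (-0.58 to 0.33) and Ucp2, an uncoupling protein relative, by 0.04 (-0.34 to 0.42).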

How the data were processed

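Renal cortex RNA of 3 vehicle and 3 treated rats was read on 1-colour arrays, and groups and replicate numbers came from the labels. Per the file headers, the authors made background-subtracted intensity values per spot in Agilent Feature Extraction 10.7.1.1; the submitters' processing notes name version 10.7. The deposited series table matched the processed signal divided by each array's 75th percentile (median ratio 1.001 to 1.004) and served as an alternative; how it was scaled is not given in the sources used here. In that table the column median was 0.11, 0.108 and 0.109 on the vehicle arrays and 0.109, 0.105 and 0.105 on the treated arrays.

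Processed signals of the 61537 probes that are not controls were put on the log2 scale, and the 75th percentile of their array was subtracted. Saturation affected no probe, and 11 with outlier flags were left out. A probe was tested if called above background throughout either group, which left 40643. Unversioned accessions were matched to RefSeq symbols (GRCr8): 28206 probes had 1 symbol, 33331 none and 0 several. Groups were compared over all tested probes in limma 3.58.1 under R 4.3.3, by lmFit with eBayes, two-sided and adjusted by Benjamini-Hochberg at 0.05. The fit was tested on simulated arrays without a slide effect, so that test does not bear on slide. "Within slide 1" is the fit with slide as a fixed block.

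The 35 genes and the other lists were chosen with earlier results of these data known. Values on every array are given for the highest, the lowest and the brightest gene of each complex and for any with an unadjusted p under 0.01; of other lists, up to 2 genes per direction with the smallest p under 0.05 are named, and 13 genes were fixed by name. Ndufs7, Ndufv1, Ndufa9, Uqcrc1, Cox5b, Ndufs4, Ndufaf7 and Prdx5 as well as Idh3b, Idh2 and Adipoq were named after their values were seen, as were the remaining members, and so was the list of pericyte and smooth muscle markers. Alternatives covered background correction (normexp on median spot signal, offset 50), normalization, the filter, slide, replicate number, variance model, probe choice, source of values and each array left out. The number of arrays limits the precision.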

Additional observations from a re-analysis of the deposited data

How the results depend on the processing

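The respiratory chain genes stayed near 0 under every setting tried: 29 to 31 of the 33 intervals lay within 0.5 of 0. Their median of 0.04 was -0.01 with quantile normalization and -0.03 with slide as a fixed block or with slide 1 arrays only. Quantile normalization gave -0.01 for complex I, -0.07 for complex IV and -0.07 for complex V, median centring gave 0.08 for complex I, and normexp background correction gave -0.04 for complex III. With slide as a fixed block, or with slide 1 arrays only, the medians were -0.01 for complex I, -0.03 for complex II, 0.34 for cytochrome c, -0.11 for complex IV and -0.11 for complex V. Leaving out each array in turn gave 0.02 to 0.10 for complex II and 0.03 to 0.13 for complex III, in both highest without treated 1. The number of genes higher at an unadjusted p under 0.05 was 2; it was 1 with slide as a random block, 4 with trended and robust variance, and 1 to 4 with each array left out, and slide as a fixed block kept the count at 2 with Cycs in place of Ndufs7, while 1 gene was lower with quantile normalization. The number past the adjusted threshold was 0 to 2 with each array left out. Across the array, 3 probes passed after adjustment, against 136 with normexp, 17 with median centring, 1 without the filter on dim probes, 0 with probes above background on all arrays, 1 with slide as a fixed block, 0 with slide 1 arrays only, 156 with trended and robust variance and 0 to 4307 with each array left out, the highest without treated 1. Genes at an unadjusted p under 0.05 numbered 2591, against 1678 with slide as a fixed block, 1650 with slide 1 arrays only and 1564 to 3905 with each array left out. Over all tested probes, deviations of same-numbered arrays correlated at -0.211, 0.014 and -0.159. These values showed no pairing by replicate number but cannot exclude one. With the replicate number as a block, 0 probes passed and the smallest adjusted p among the 33 genes was 0.231 in limma (Ndufb8). Many differences are small enough to change sign; none of those that did had passed the threshold. Sign changes are listed for 86 genes, those of complexes I to V, cytochrome c and the named-gene rule. Slide as a fixed block and slide 1 arrays only both turned 24 of the 86: Atp5f1a -0.08, Atp5f1b -0.13, Atp5f1c -0.04, Atp5f1d -0.0036, Atp5f1e -0.04, Atp5mc1 -0.14, Atp5mc2 -0.09, Atp5me -0.12, Atp5pb -0.12, Cox4i1 -0.08, Cox5b -0.12, Cox6a1 -0.11, Gabpa 0.0047, Ndufa2 -0.04, Ndufa5 -0.01, Ndufs1 -0.02, Nrf1 -0.08, Ppargc1a -0.07, Sdha -0.10, Sdhb -0.03, Tfam 0.03, Uqcrb -0.12, Uqcrc1 -0.11 and Uqcrq 0.18. Among 91 further genes of the mitochondrial lists, the fixed block turned 41. Slide as a random block turned 12: Atp5f1a -0.01, Atp5f1b -0.05, Atp5f1c -0.02, Atp5mc1 -0.02, Atp5me -0.05, Atp5pb -0.03, Cox4i1 -0.01, Cox5b -0.04, Cox6a1 -0.05, Nrf1 -0.00024, Sdha -0.03 and Uqcrb -0.03. Quantile normalization turned 16: Atp5f1a -0.07, Atp5f1b -0.01, Atp5f1c -0.04, Atp5f1e -0.05, Atp5mc1 -0.03, Atp5mc2 -0.0038, Atp5me -0.09, Atp5pb -0.07, Cox4i1 -0.05, Cox5b -0.07, Cox6a1 -0.06, Ndufa2 -0.00081, Ndufs1 -0.01, Ndufs4 -0.02, Sdha -0.03 and Uqcrb -0.0026. Normexp turned 14: Atp5f1b -0.10, Atp5f1c -0.04, Atp5mf 0.04, Atp5pb -0.04, Atp5pd 0.04, Cox4i1 -0.05, Cox5b -0.0022, Cox6c 0.06, Esrra -0.0037, Ndufb3 0.0041, Ndufs4 -0.07, Ucp2 -0.05, Uqcrb -0.04 and Uqcrfs1 -0.06. Median centring turned 6: Atp5mf 0.02, Cox6c 0.03, Ndufb10 0.03, Ndufb3 0.01, Ndufs3 0.01 and Sdhc 0.03. The mean over all probes turned 6: Atp5pf 0.001, Cox5b -0.08, Cox6c 0.00055, Ndufb10 0.01, Nrf1 -0.01 and Uqcrb -0.02. With each array left out the range crossed 0 for Atp5f1b -0.04 to 0.07, Atp5f1c -0.02 to 0.03, Atp5me -0.03 to 0.08, Atp5mf -0.05 to 0.03, Atp5pb -0.01 to 0.10, Cox5a -0.01 to 0.11, Cox5b -0.03 to 0.09, Cox6a1 -0.02 to 0.07, Cox6c -0.04 to 0.05, Ndufb10 -0.04 to 0.03, Ndufb3 -0.06 to 0.0042, Nrf1 -0.01 to 0.13, Sdha -0.04 to 0.09, Sdhc -0.03 to 0.02, Sod2 -0.24 to 0.05, Ucp2 -0.11 to 0.17 and Uqcrb -0.01 to 0.13. The causes were not tested, except that the fixed block and slide 1 arrays only rest on treated 1 alone; the random block uses all 6 arrays and gave a median of 0.01 over the 33 genes. The alternatives kept the probe chosen for each gene, apart from the mean over probes. With 3 arrays a group, the median half-width of the interval was 0.20 for the 33 genes and 0.28 for all tested genes.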

Other observations

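Marker genes of cell types that cortex can hold were read beside the respiratory chain genes, and none passed limma after adjustment over all arrays. Among the proximal tubule markers, the lactate transporter Slc5a12 differed by 0.43 (interval 0.09 to 0.77) and the brush border enzyme Ggt1 by 0.59 (0.12 to 1.07), while the endocytic receptor Lrp2 differed by -0.33 (-0.56 to -0.09). Within slide 1 these values were 0.24, 0.75 and -0.36. The median difference was 0.01 over 10 markers of the thick limb and distal tubule, -0.20 over 9 of the collecting duct, 0.16 over 6 of podocytes and 0.05 over 7 of endothelium. With slide as a block those medians were 0.22, -0.25, -0.05 and -0.03. The median was -0.38 over 7 immune cell markers, -0.30 over 7 of striated muscle, 0.58 over 5 of adipose tissue and 0.58 over 10 of liver. With slide as a block these were -0.08, -0.02, 0.42 and -0.08.

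The brown fat uncoupling protein gene Ucp1 differed by 0.58 (interval 0.21 to 0.95); it was at -4.66, -5.16 and -4.97 in vehicle and -4.51, -4.23 and -4.31 in treated cortex, with no overlap. The lipid droplet gene Cidec differed by 1.86 (0.36 to 3.37), and its vehicle arrays spread from -2.83 to -0.36. The adipocyte hormone gene Adipoq differed by -0.08 (-0.62 to 0.45) and by -0.56 within slide 1. Within slide 1 Ucp1 and Cidec differed by 0.42 and 2.20. All 10 liver markers had differences above 0, as did 5754 of the 12118 tested genes. With slide as a block, Alb, Ttr, Fgb, Serpina1 and Ahsg were below 0 and Apoa1, Apoa2, Fga, Tf and Hp above it. Of the 10 liver markers, 1 was higher at an unadjusted p under 0.05 (10.0%, against 10.1% of all tested genes). It was Tf, at 1.11 (interval 0.20 to 2.01) over all arrays and 1.01 within slide 1. The median of the liver markers against the vehicle mean spread widely within groups. It was 1.18, 0.34 and -1.60 in vehicle and -0.08, 0.25 and 2.17 in treated cortex. The respiratory chain genes, whose medians lay between -0.03 and 0.07, showed no such spread. The part of liver transcripts in the respiratory chain values was not tested.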
